A study of Mus musculus with 12 samples.

Results

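The clustered histone genes are the mouse genes that encode the 5 classes of histone protein and lie together in tandem arrays on a few chromosomes. They were taken as the protein-coding genes of GENCODE release M21 whose symbol begins with Hist1h, Hist2h, Hist3h or Hist4h, and those with a mean expected count (read pairs per gene as estimated by RSEM) of 10 or more over 12 RNA-seq libraries were kept. Of 67 such genes among the 55335 genes listed, 12 passed this minimum and 55 did not. The libraries were made from bone marrow-derived dendritic cells (BMDCs) of C57BL/6 mice that carried a CreER transgene with an intact Ctcf gene, which applies to all 4 groups. Bone marrow was grown with the cytokine GM-CSF for 6 days with a change of medium every 2 days, and floating CD11c+ cells were selected with beads. The groups were WT (no treatment), WTL (lipopolysaccharide, LPS, a bacterial membrane component that activates these cells, at 100 ng/ml for 3 h), WT + JSH23 (the compound JSH-23, which keeps RelA, a subunit of the transcription factor NF-κB, out of the nucleus, at 100 µM for 3 h) and WTL + JSH23 (JSH-23 followed by LPS). Each group held 3 libraries. The study's methods give 3 biological replicates per condition for RNA-seq. Neither they nor the labels say that these came from separate animals, so p values measure the spread between these libraries. The solvent given to WT and WTL was not stated. WT and WTL libraries were numbered 4 to 6 and the JSH-23 libraries 1 to 3. The study also lists WT and WTL libraries numbered 1 to 3, which were not used here. No label says whether the libraries with and without JSH-23 were grown or sequenced together. An effect of JSH-23 and such a difference, if there was one, cannot be told apart.

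Histones package DNA into nucleosomes. H2A, H2B, H3 and H4 form the core around which DNA is wrapped, and the linker histone H1 binds the DNA between cores. Most clustered genes are replication-dependent: they are transcribed in S phase, and their short, intronless mRNAs end just behind a conserved stem-loop in place of a poly(A) tail. Some members can also be read through the stem-loop to a polyadenylation signal, a form known from cells that have stopped dividing. Replacement histones are encoded elsewhere in the genome. Most, though not all, are made through the whole cell cycle as ordinary polyadenylated mRNAs.

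Clustered histone mRNAs took between 0.00641% and 0.0130% of the counts of a library, at library totals between 24664724 and 34837847. The 12 members held between 95.7% and 97.5% of these histone counts. Hist1h1c, which encodes linker histone H1.2, alone gave 45.7% of the members' counts over all libraries, and Hist1h1c, Hist1h2bc and Hist1h2ap together gave 74.2%. By class, 1 of 6 H1 genes, 4 of 18 H2A genes, 4 of 18 H2B genes, 2 of 12 H3 genes and 1 of 13 H4 genes passed the minimum. By cluster, 6 of 54 genes of Hist1 (chromosome 13), 5 of 10 of Hist2 (chromosome 3), 1 of 2 of Hist3 (chromosome 11) and 0 of 1 of Hist4 (chromosome 6) did. Just inside the minimum stood Hist1h2bg with a mean count of 10.3 and Hist2h3c1 with 10.6, and just outside it Hist1h1d with 7.84 and Hist1h2ae with 7.07. Of the 55 genes below it, 8 were listed at 0 in all 12 libraries and 31 had a mean under 1. The highest count of any of them in a library was 16.1. All 12 members were among the 14357 genes left by the filter on low counts, so none was lost from the tests.

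The members with the most counts lie at these places on GRCm38, under the identifiers of the files: Hist1h1c (ENSMUSG00000036181.2) at chr13:23738808-23740367 on the plus strand, Hist1h2bc (ENSMUSG00000018102.5) at chr13:23684199-23692908 on the plus strand, Hist1h2ap (ENSMUSG00000094777.2) at chr13:21833026-21833507 on the minus strand and Hist3h2a (ENSMUSG00000078851.4) at chr11:58954685-58956830 on the plus strand. Of the Hist2 members, Hist2h2be, Hist2h3c2, Hist2h2aa2, Hist2h2aa1 and Hist2h3c1 follow each other from chr3:96221119 to chr3:96248509.

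The labels name depletion of ribosomal RNA and the study's methods name poly(A) selection, and which of them was used was not settled here. The point bears on every level below, since mRNAs that end at the stem-loop lack the tail that poly(A) selection captures. The annotated transcripts can be set beside the levels. The stem-loop was searched on the transcript strand as GG, any 2 bases, CTTTT, any base, AG, any 2 bases and CC, and the following windows of up to 5 bases on either side, within the transcript, are shown because they include the 4 most abundant members that hold it (capitals mark the stem-loop, positions are on GRCm38).

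Hist1h1c, chr13:23739507-23739532, plus strand: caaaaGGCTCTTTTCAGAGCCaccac

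Hist1h2ap, chr13:21833026-21833049, minus strand: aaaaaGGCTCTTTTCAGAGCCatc

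Hist3h2a, chr11:58955167-58955192, plus strand: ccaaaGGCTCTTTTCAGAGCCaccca

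Hist2h2aa2, chr3:96239779-96239804, minus strand: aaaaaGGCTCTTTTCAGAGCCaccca

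Hist1h4i, chr13:22040961-22040986, minus strand: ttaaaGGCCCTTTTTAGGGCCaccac

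The longest coding transcript held the stem-loop letters in 10 of the 12 members and in 33 of the 55 genes below the minimum. The annotated transcript of Hist1h2ap ended 3 bases behind the stem-loop and that of Hist2h2aa2 35 bases behind it, while 840 bases followed in Hist1h1c and 1643 in Hist3h2a. Among genes with the letters, the median stretch behind the stem-loop was 353.5 bases in the members and 57 in the others, and it exceeded 100 bases in 7 of 10 and 15 of 33. The median length of the longest transcript was 1088 bases for the members and 520 for the genes below the minimum. Hist1h2bc and Hist2h2be, both H2B genes, did not hold these letters in their annotated transcripts, which were 1156 and 2620 bases long. The mean count was part of the rule that chose the members, so these values describe them without a test.

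**Figure D1:**
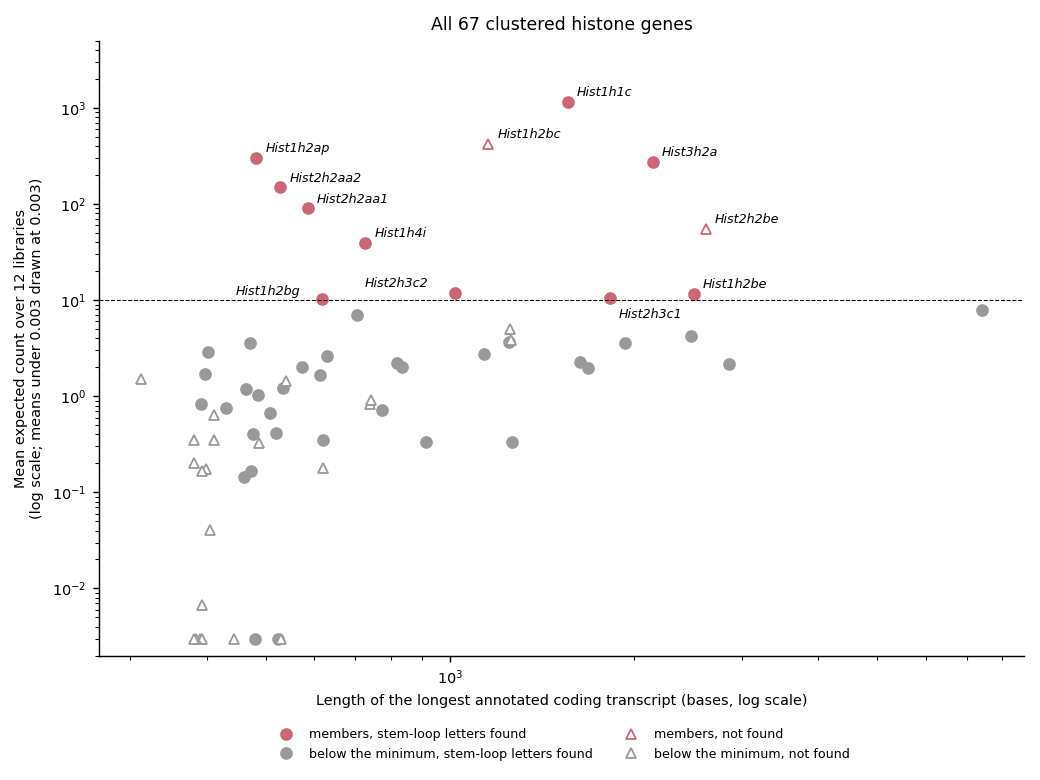
Mean expected count over the 12 libraries (log scale) against the length of the longest annotated coding transcript in bases (log scale) for all 67 clustered histone genes, with circles for transcripts that hold the stem-loop letters, triangles for those that do not, red for the 12 members, grey for the 55 others and a dashed line at the minimum of 10. Means under 0.003 are drawn at 0.003. Hist1h1c lies highest at a mean count of 1161, and Hist1h2ap reaches 304 with a transcript of 482 bases.

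Upstream sequence was taken from RefSeq (GRCm38.p6), where 10 of the 12 members matched. The 200 bases before the start are shown for the linker histone and for the Hist3 member, because these genes fell with both treatments in the results below. Capitals mark the motifs CCAAT and ATTTGCAT (the octamer bound by OCT1, a motif known from H2B promoters) on either strand, which do not overlap each other here.

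Hist1h1c, chr13:23738607-23738806, plus strand: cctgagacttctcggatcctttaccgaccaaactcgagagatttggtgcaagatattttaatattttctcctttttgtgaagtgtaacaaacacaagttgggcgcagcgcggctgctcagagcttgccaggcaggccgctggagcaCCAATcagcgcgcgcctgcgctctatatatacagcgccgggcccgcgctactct

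Hist3h2a, chr11:58954485-58954684, plus strand: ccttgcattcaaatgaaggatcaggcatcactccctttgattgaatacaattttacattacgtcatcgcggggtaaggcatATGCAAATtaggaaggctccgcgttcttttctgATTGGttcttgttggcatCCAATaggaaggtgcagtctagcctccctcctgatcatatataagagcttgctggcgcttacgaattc

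CCAAT was found within 200 bases upstream in 7 of the 10 members, beside 29.3% of 32851 RefSeq promoters, and the octamer in 3 of 10, beside 1.38%. The octamer lay upstream of Hist3h2a, Hist1h2bg and an internal start of Hist1h2be. The windows of Hist2h2aa1 and Hist2h2aa2 are largely the same sequence, and Hist1h2be was searched at both of its starts. Counts per member and shares per promoter are thus not fully alike. TATAAA was found in 2 members, Hist1h4i and Hist1h2bg, beside 9.96% of promoters. The consensus site of NF-κB was found in 0 of 10, beside 6.07%, which says only that these letters are not in this window.

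Per length, Hist1h2ap was the most abundant member, with TPM (the deposited unit that divides by transcript length and by the total of a library) between 35.0 and 101 over the 12 libraries and a median of 63.8. Hist1h1c followed, between 28.7 and 67.6 with a median of 43.6, then Hist2h2aa2 (median 29.3), Hist1h2bc (23.1), Hist2h2aa1 (13.8) and Hist3h2a (6.85). Over the 12 libraries the ranges of neighbours in this order overlapped. The other 6 members had medians between 0.065 TPM (Hist2h3c1) and 4.24 TPM (Hist1h4i), and Hist1h2ap and Hist1h1c stood above all 6 of these in every library. RSEM divides read pairs that fit several genes, and 7 members had fractional counts in all 12 libraries. Hist1h2ap shares a run of 452 of its 482 transcript bases with Hist1h2ao, and all 528 bases of Hist2h2aa2 lie within Hist2h2aa1. Hist2h3c1 and Hist2h3c2 share 666 bases. Levels of these genes singly are uncertain in how their reads were split. Hist3h2a overlaps Trim17 on the same strand, and Hist1h2be overlaps Hist1h1e. Trim17 stood between 0.212 and 0.634 CPM in the group means (CPM expresses counts relative to the size of the library after TMM scaling), against 5.83 to 14.0 CPM for Hist3h2a.

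**Figure D2:**
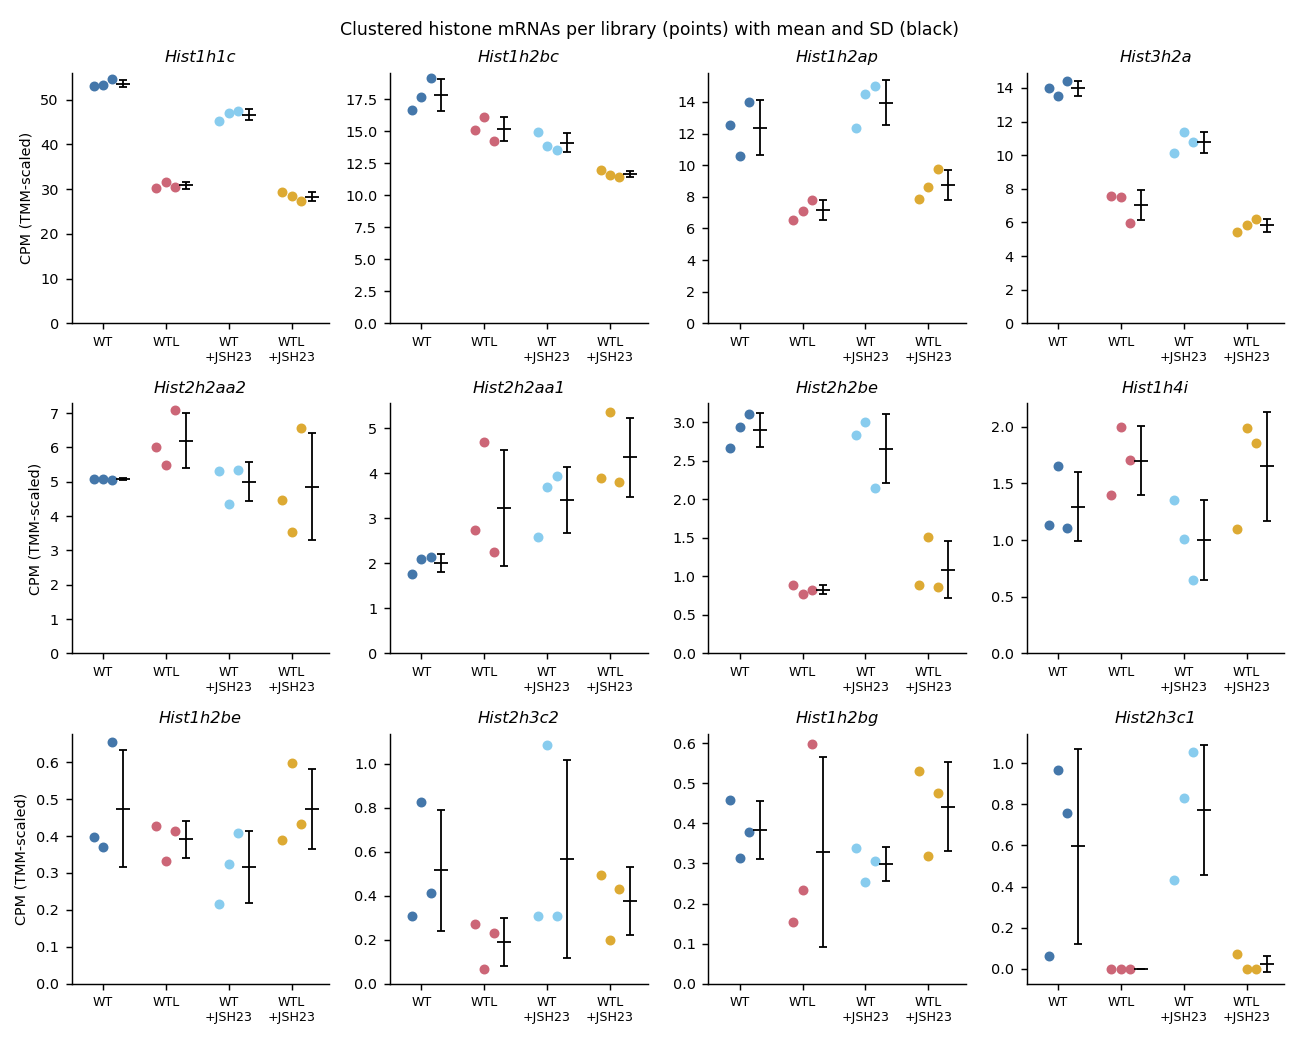
CPM of the 12 members in each library (points), with the group mean and SD (black), for the 4 groups of 3 libraries. Hist1h1c, Hist3h2a, Hist1h2ap and Hist2h2be are lower in both LPS groups than in both groups without LPS, with no overlap, while the 4 genes with the lowest levels scatter more within groups.

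The first comparison asks how the genes changed with LPS alone. Of the 12 members, 7 were lower in WTL than in WT and 1 was higher, by edgeR's quasi-likelihood test with an adjusted p under 0.05. Over all genes tested, 65.7% passed in this comparison, 34.7% lower and 31.0% higher, so passing was itself common. More than 2-fold, 3 members were lower and none of the 12 was higher, where 9.09% of all genes were lower and 7.36% higher. These counts are a description, because the mean over all libraries chose the members: Hist2h3c1 (mean count of 20.8 without LPS and 0.352 with it), Hist2h3c2 (16.6 and 7.22) and Hist1h2bg (11.0 and 9.65) reached the minimum of 10 only through the libraries without LPS, so that the rule partly fixed the direction of the first and second. Over the 9 members that reached it both with and without LPS, a restriction chosen after the data were seen, 5 were lower, 1 was higher and 1 was lower by more than 2-fold. The median log2 fold change was -0.54 for the 12 and -0.27 for these 9, beside -0.05 for all genes. Summed, the 12 stood at 111 ± 4.13 CPM in WT and 73.1 ± 2.57 CPM in WTL (SD, n = 3). In bulk RNA, fewer cells with these transcripts and less RNA per cell cannot be told apart.

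The linker histone gene Hist1h1c stood at 53.0, 53.3 and 54.6 CPM in the WT libraries and at 30.3, 31.7 and 30.5 CPM in the WTL libraries. All WTL values lay below all WT values, and the groups were far apart. Its log2 fold change was -0.80 ± 0.05 (SE), with an adjusted p of 1.68e-12 by edgeR. As a share of the members' summed CPM it was 48.3% ± 1.03 in WT and 42.2% ± 0.46 in WTL.

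Among the H2B genes, Hist2h2be fell most. It stood at 2.66, 2.93 and 3.10 CPM in WT and at 0.891, 0.767 and 0.829 CPM in WTL, which is between 87 and 103 counts against 18 to 23. The groups did not overlap, and this was the only member whose counts were whole in every library. The log2 fold change was -1.80 ± 0.22 (adjusted p of 2.99e-07, edgeR). Hist1h2bc, the most abundant H2B gene, moved little: 16.6, 17.7 and 19.1 CPM in WT beside 15.1, 16.1 and 14.3 CPM in WTL. Its groups did not overlap by a narrow margin, and the log2 fold change of -0.23 ± 0.07 had an adjusted p of 0.00640 by edgeR and 0.0630 by DESeq2. Hist1h2be and Hist1h2bg, with at most 19.0 counts in a WT or WTL library, overlapped between groups and did not pass, with log2 fold changes of -0.27 ± 0.37 and -0.28 ± 0.44.

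The H2A genes went both ways. Hist3h2a, of the small cluster on chromosome 11, stood at 14.0, 13.5 and 14.4 CPM in WT and at 7.59, 7.53 and 5.99 CPM in WTL, a log2 fold change of -0.98 ± 0.09 (adjusted p of 2.63e-09, edgeR). Hist1h2ap, the replication-dependent H2A gene whose annotated transcript ends at the stem-loop, stood at 12.5, 10.6 and 14.0 CPM in WT and at 6.55, 7.10 and 7.83 CPM in WTL. Both genes were lower in every WTL library than in any WT library, and the change of Hist1h2ap was -0.79 ± 0.11 on the log2 scale (adjusted p of 2.38e-06, edgeR). The Hist2 genes Hist2h2aa1 and Hist2h2aa2, by contrast, were not lower.

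These last genes are near-identical copies, and the division of their reads moved between libraries. RSEM gave Hist2h2aa1 between 26.0% and 29.8% of the pair's counts in WT and between 24.0% and 46.1% in WTL. Singly, Hist2h2aa1 rose from 1.77, 2.10 and 2.14 CPM to 2.75, 4.70 and 2.26 CPM, a log2 fold change of 0.72 ± 0.23 (adjusted p of 0.00999, edgeR). That call rested on 1 library: without WTL replicate 5, in which it had 141 counts, the change was 0.33 with an adjusted p of 0.214. Hist2h2aa2 did not pass, at 0.28 ± 0.15 (adjusted p of 0.115, edgeR).

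Summed over both copies, a quantity chosen after the data were seen, the pair stood at 6.85, 7.20 and 7.18 CPM in WT and at 8.76, 10.2 and 9.35 CPM in WTL. On CPM the sum was higher in every WTL library than in any WT library, with a log2 fold change of 0.42 ± 0.10 (adjusted p of 0.000658, edgeR). On log2(TPM + 1) by limma, where the median change of all genes was -0.26, the change of Hist2h2aa1 was 0.24 and that of Hist2h2aa2 -0.08, and neither passed. Mean TPM in WT and WTL was 9.69 and 12.1 for Hist2h2aa1 and 29.4 and 28.1 for Hist2h2aa2. The sum was not tested on TPM.

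**Figure D3:**
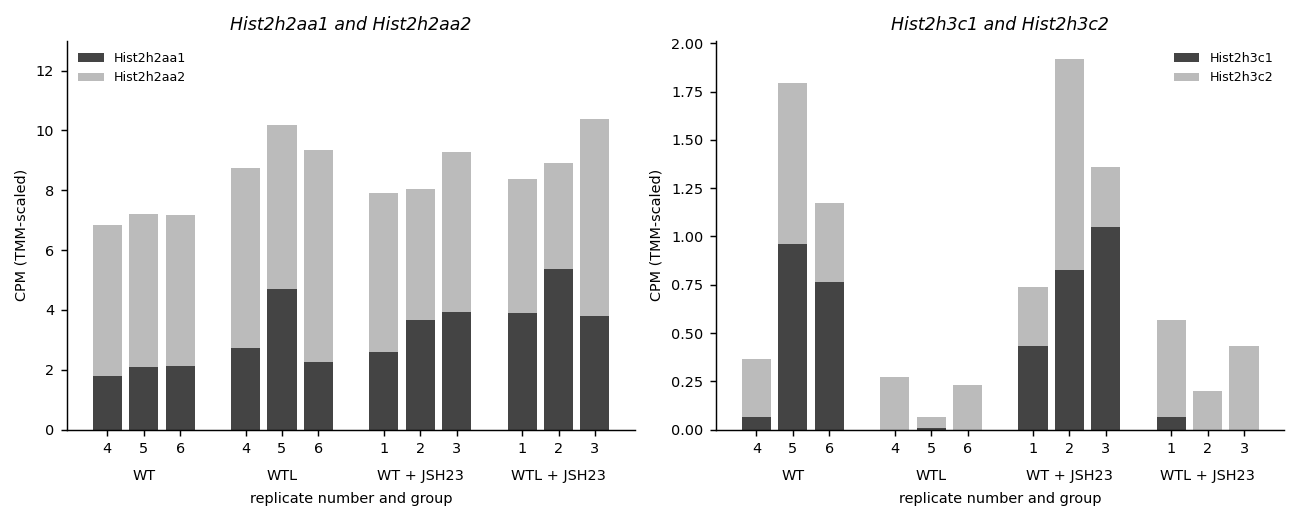
CPM of the near-identical gene pairs in each library, stacked from 0 as RSEM divided their reads, with the replicate number and group below each bar. The sum of Hist2h2aa1 and Hist2h2aa2 varies less within WTL than the part given to either gene, and the sum of Hist2h3c1 and Hist2h3c2 is at most 0.567 CPM in the 6 LPS libraries, while of the 6 others WT replicate 4 alone is below that, at 0.367 CPM.

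The H3 genes among the members are also near-identical copies, and both were lower in WTL, which the choice of members partly fixed. Hist2h3c1 had 2.06, 33.6 and 22.1 counts in WT and 0, 0.33 and 0 counts in WTL, so all WTL libraries, and WT replicate 4, lay under the limit that a count of 0 allows (3 counts per library). Against that limit it was at least 5.04-fold lower, by the group mean of WT, a description of a gene that became a member through the groups where it is high. Hist2h3c2 fell by 1.50 on the log2 scale (SE 0.61, adjusted p of 0.0373, edgeR), and this call was lost without WT replicate 5 (adjusted p of 0.239), WTL replicate 5 (0.184) or WTL replicate 6 (0.0553) and in DESeq2 (0.0762). The sum of both genes was 0.367, 1.79 and 1.17 CPM in WT and 0.271, 0.0667 and 0.230 CPM in WTL, a log2 fold change of -2.50 ± 0.58. The groups did not overlap, although the lowest WT library came close to the highest WTL library.

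The H4 gene Hist1h4i did not pass in this comparison. It stood at 1.13, 1.65 and 1.10 CPM in WT and at 1.39, 2.00 and 1.70 CPM in WTL, with overlapping groups and a log2 fold change of 0.39 ± 0.27 (adjusted p of 0.209, edgeR). The interval of 2 SE ran from -0.15 to 0.92.

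The same question was asked of cells given JSH-23 first. There 6 of the 12 members were lower in WTL + JSH23 than in WT + JSH23 and 1 was higher, where 54.5% of all genes passed, 27.1% lower and 27.4% higher. Past 2-fold, 2 members were lower and none higher, and of all genes 4.49% were lower and 5.85% higher. Hist2h3c1 was 1 of the 2, and nothing is read from that count. Of the 9 members that reached the minimum both with and without LPS, 5 were lower, 1 was higher and 1 was past 2-fold. Hist1h1c stood at 45.3, 47.1 and 47.5 CPM in WT + JSH23 and at 29.3, 28.5 and 27.3 CPM in WTL + JSH23. Hist3h2a stood at 10.1, 11.4 and 10.8 CPM and at 5.42, 5.85 and 6.22 CPM. Neither gene had overlapping groups. Their log2 fold changes were -0.72 ± 0.05 and -0.89 ± 0.09 (adjusted p of 2.58e-11 and 6.15e-08, edgeR).

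Hist2h2be had between 63 and 92 counts in WT + JSH23 and between 20 and 38 in WTL + JSH23, a log2 fold change of -1.29 ± 0.21 (adjusted p of 2.73e-05, edgeR). Hist1h2ap fell by 0.67 (SE 0.11) and Hist1h2bc by 0.27 (SE 0.07) on the log2 scale. These were genes that had also passed with LPS alone. Hist2h3c1 had 13.7, 22.6 and 30.7 counts in WT + JSH23 and 1.78, 0 and 0 in WTL + JSH23, at least 6.52-fold lower against the limit of 3 counts per library, again a description. The H3 pair as a sum fell by 1.68 on the log2 scale (SE 0.50), while Hist2h3c2 alone did not pass (-0.55 ± 0.53). The choice of members partly fixed the direction of this sum.

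The one member higher after JSH-23 was Hist1h4i, at 1.35, 1.01 and 0.647 CPM in WT + JSH23 and 1.10, 1.99 and 1.86 CPM in WTL + JSH23. Its groups overlapped, and the log2 fold change of 0.69 ± 0.28 had an adjusted p of 0.0446 (edgeR). DESeq2, upper quartile scaling, limma on TPM and the fit of these 6 libraries alone did not call it, nor did 5 of the 12 fits that left out 1 library: those without WT + JSH23 replicate 2 or 3 (adjusted p of 0.0874 and 0.201), WTL + JSH23 replicate 2 or 3 (0.180 and 0.119) or WTL replicate 6 (0.0535). The sum of the Hist2h2aa pair did not pass after JSH-23, at 0.13 ± 0.10 on the log2 scale, and its interaction was -0.29 ± 0.14 (adjusted p of 0.146, edgeR).

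The difference between the LPS changes with and without JSH-23 (the interaction) was also tested. Of the 12 members 0 passed in edgeR, and 0 had an unadjusted p under 0.05, where 18.0% of all genes passed, 9.54% higher and 8.44% lower. DESeq2 called 0 of 12. Limma on TPM called 1, Hist1h1c, at 0.21 (adjusted p of 0.0494), where the median of all genes was 0.11. In edgeR the interaction of Hist1h1c was 0.08 ± 0.07, with an interval of 2 SE from -0.05 to 0.21, and that of Hist3h2a 0.09 ± 0.13 (-0.17 to 0.35). Hist2h2be had a wider interval, 0.52 ± 0.32 (-0.12 to 1.15). The intervals leave room for differences of up to about these bounds, and the test did not show that the LPS changes were alike.

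With JSH-23 itself the share of members that were lower was near that of all genes. Without LPS, 3 of the 12 members were lower in WT + JSH23 than in WT and 1 was higher, where 41.0% of all genes passed, 22.1% lower and 18.8% higher, so the count says nothing particular of the members. Markers of macrophages and dendritic cells also changed in this comparison (values at the end), and their part in the histone values was not tested. None of the 12 members passed 2-fold, which 2.94% of all genes did downward and 2.43% upward. Hist1h2bc was at 14.9, 13.8 and 13.5 CPM in WT + JSH23, below all 3 WT values, with a log2 fold change of -0.33 ± 0.07 (adjusted p of 0.000383, edgeR). Hist1h1c changed by -0.20 ± 0.04 and Hist3h2a by -0.38 ± 0.08 (adjusted p of 0.000654 and 0.000618, edgeR), again without overlap. Hist2h2aa1 was the member that rose, by 0.76 ± 0.23 (adjusted p of 0.0109, edgeR), and this call was lost without WT + JSH23 replicate 3 (0.63, adjusted p of 0.0587). Its copy Hist2h2aa2 stood at -0.02 ± 0.15. The pair as a sum stood at 7.90, 8.03 and 9.29 CPM in WT + JSH23, above every WT library, with a log2 fold change of 0.25 ± 0.10 (adjusted p of 0.0445, edgeR). Since WT serves in this comparison and in that of LPS alone, the values of the comparisons are not independent.

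Under LPS, Hist1h2bc, Hist3h2a and Hist1h1c were lower in WTL + JSH23 than in WTL and 0 members were higher in edgeR, where 48.7% of all genes passed, 24.2% lower and 24.5% higher, and none was past 2-fold, which 3.25% of all genes were downward and 3.75% upward. The median of the 12 had the other sign, 0.28, beside -0.06 for the 9 members that reached the minimum both with and without LPS and 0.02 for all genes. All 6 neutrophil markers tested and 6 of 8 dendritic-cell markers were lower in this comparison too, and their part was not tested. Hist1h2bc stood at 11.9, 11.6 and 11.5 CPM in WTL + JSH23, below all WTL values, a log2 fold change of -0.38 ± 0.07 (adjusted p of 0.000205, edgeR). The change of Hist3h2a, -0.29 ± 0.10 (adjusted p of 0.0238), had overlapping groups and was not called without WTL + JSH23 replicate 1 (0.115), WTL replicate 4 (0.102) or WTL replicate 5 (0.112). That of Hist1h1c, -0.12 ± 0.05 (adjusted p of 0.0461), was called in only 1 of the 12 fits that left out 1 library, that without WTL + JSH23 replicate 1 (0.0476), the others giving adjusted p up to 0.164, and its sign turned on TPM (0.00). Of members with higher values, 1 reached an unadjusted p under 0.05: Hist1h2ap, at 0.29 ± 0.12 (adjusted p of 0.0519, edgeR), which was called after upper quartile scaling, by limma on TPM and in 5 of the 12 fits without 1 library. DESeq2 called 0 higher and 2 lower.

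**Figure D4:**
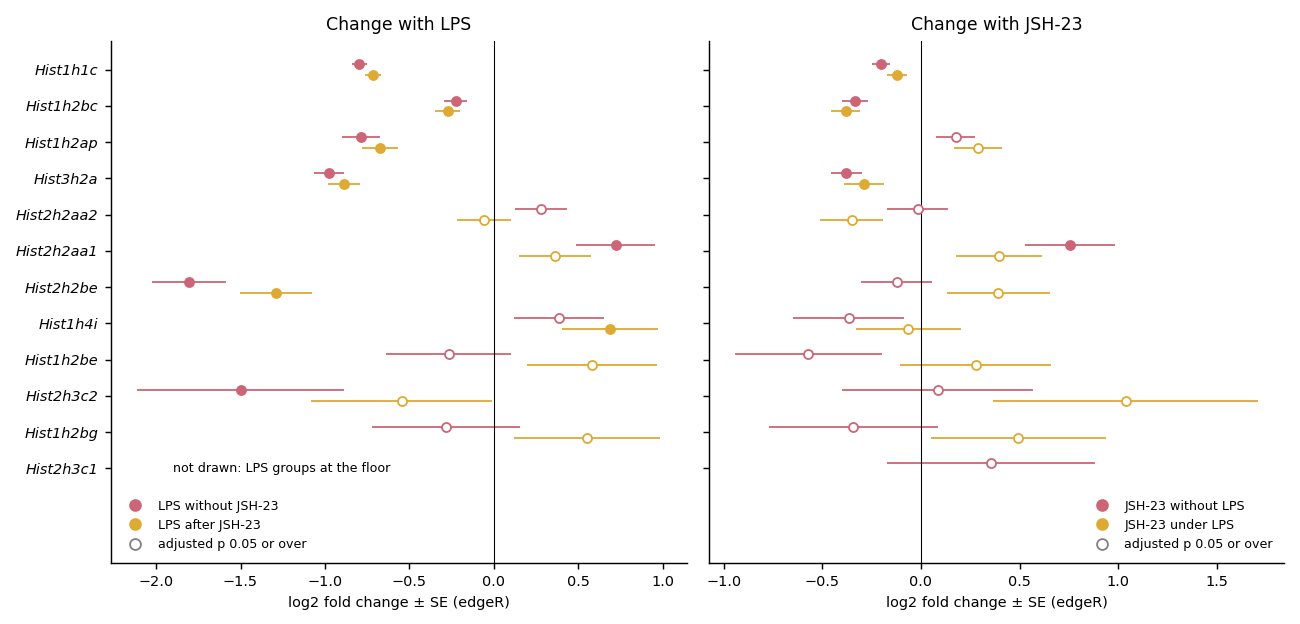
Log2 fold change ± SE of the 12 members with LPS (left; without and after JSH-23) and with JSH-23 (right; without and under LPS), with filled points for an adjusted p under 0.05 by edgeR. Hist2h3c1 is drawn only for JSH-23 without LPS, because its counts in the LPS groups were at the floor. Hist2h2be and Hist1h2ap lie left of 0 in both LPS comparisons, and Hist1h1c, Hist3h2a and Hist1h2bc in all 4.

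Summed over the 12 members, the level after JSH-23 was 99.5 ± 2.97 CPM without LPS and 67.9 ± 1.42 CPM with it (SD, n = 3). Without Hist1h1c, the other 11 summed to 57.4 ± 3.30 CPM in WT, 42.2 ± 1.82 in WTL, 52.8 ± 1.82 in WT + JSH23 and 39.5 ± 2.40 in WTL + JSH23. By cluster, the Hist1 members summed to 86.0 ± 3.38 CPM in WT and 55.6 ± 1.78 in WTL, and the Hist2 members to 11.1 ± 1.07 and 10.5 ± 0.56. Within Hist2 the summed H2A copies were higher on CPM with LPS alone while Hist2h2be was lower, so the sum hides changes in both directions. The H3 genes were lower too, which the choice of members partly fixed. The 55 genes below the minimum summed to 3.18 ± 0.08 CPM in WT, 2.71 ± 0.44 in WTL, 2.79 ± 0.38 in WT + JSH23 and 2.18 ± 0.20 in WTL + JSH23. On TPM, the sum of the members was 142 ± 7.50 in WTL and 153 ± 7.29 in WTL + JSH23, the opposite order to that on CPM. For JSH-23 under LPS, the median change of all genes was 0.097 by limma on log2(TPM + 1) and 0.020 in the main fit.

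H2A and H2B genes often lie head to head and share the stretch between their starts. Of 13 head-to-head pairs of clustered histone genes within 1000 bases, 12 paired an H2A with an H2B gene, and 4 held a member, and in each of the 4 only 1 partner was a member. Hist1h2bc had a mean count of 422 and its partner Hist1h2ac, 251 bases away, 4.20. Hist2h2be had 55.4 and Hist2h2ac, 239 bases away, 0.418. Hist1h2ap had 304 and Hist1h2br, 236 bases away, 3.89. The levels of partners were thus far apart in 3 of the 4 pairs, while in the fourth Hist1h2bg had 10.3 and Hist1h2ae 7.07.

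Genes that work with the histones were followed by lists. For comparison, 34.7% of all genes tested were lower and 31.0% higher with LPS alone. With LPS after JSH-23 these shares were 27.1% and 27.4%, and with JSH-23 alone 22.1% and 18.8%. Among 25 S-phase genes, 19 were lower in WTL than in WT and 3 higher, with a median log2 fold change of -0.50 beside -0.05 for all genes. The replicative helicase gene Mcm6 changed by -0.85 ± 0.06 and Gins2, of the same helicase complex, by -0.68 ± 0.05. Thymidylate synthase, Tyms, went the other way at 0.98 ± 0.06, as did Ccne1 (0.68) and Fen1 (0.19), the latter 2 named after their values were seen. After JSH-23 the list had 17 lower and 4 higher, and with JSH-23 alone 4 lower and 4 higher.

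Of 12 genes of mitosis, 10 were lower with LPS and 1 was higher, with a median of -1.05. Aurkb, the kinase of chromosome segregation, changed by -1.66 ± 0.14 and Ccnb1, cyclin B1, by -1.48 ± 0.12. The gene that rose was Mki67, which encodes the Ki-67 protein of the chromosome surface: it stood at 85.1, 86.6 and 87.8 CPM in WT and at 599.9, 559 and 579.9 CPM in WTL, a log2 fold change of 2.74 ± 0.04. With JSH-23 without LPS all 12 genes of this list were lower, with a median of -0.88, among them Plk1 (-1.65 ± 0.16), Top2a (-0.93 ± 0.07) and Mki67 (-0.83 ± 0.04). In that comparison the median of the 12 clustered histone genes was -0.16 and that of all genes -0.01.

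As counted here, the replacement histones were far more abundant as a group. The unsettled kind of RNA selection bears on this comparison, since mRNAs that end at the stem-loop lack a poly(A) tail. The 11 genes of this list summed to between 1530 and 1573 CPM in WT and between 2064 and 2180 CPM in WTL. With LPS, 4 of the 11 rose and 5 fell, where 31.0% of all genes were higher and 34.7% lower. H3f3b, which encodes H3.3, rose by 0.95 ± 0.04 and H2afy, which encodes macroH2A1, by 0.51 ± 0.04, while Cenpa, the H3 variant of centromeres, changed by -1.33 ± 0.09. With JSH-23 under LPS, H3f3b changed by -0.60 ± 0.04 and the linker histone genes H1fx and H1f0 by -0.79 ± 0.11 and -0.31 ± 0.05. Of the LPS changes, that of H3f3b was smaller after JSH-23, with an interaction of -0.41 ± 0.05 (adjusted p of 1.40e-05, edgeR).

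Genes that process histone mRNA went both ways, as did all genes tested. Of 15, 5 were higher and 3 lower with LPS, where 31.0% of all genes were higher and 34.7% lower. Their log2 fold changes ran from -0.49 to 0.42, with none past 2-fold. Slbp, the protein that binds the stem-loop, was chosen for its role after the values were seen and did not pass (0.10 ± 0.05, adjusted p of 0.0986, edgeR). Cpsf2 and Cpsf3, subunits of the cleavage complex, changed in opposite directions, by 0.42 ± 0.04 and -0.42 ± 0.06, and Eri1, a nuclease that trims the histone mRNA end, changed by 0.34 ± 0.04. With JSH-23 alone 1 of 15 was higher and 4 were lower, beside 18.8% and 22.1% of all genes. Of 10 histone chaperone genes, 3 were higher and 6 lower with LPS, beside the shares of all genes above. Chaf1a, of the chromatin assembly factor that places new H3 and H4 behind the replication fork, changed by -0.89 ± 0.08 and Hira, which places H3.3, by -0.52 ± 0.06, while Hat1, which acetylates new H4, changed by 0.36 ± 0.05. With JSH-23 alone 4 of the 10 chaperone genes rose, beside 18.8% of all genes, among them Asf1a (0.71 ± 0.08) and Nasp (0.39 ± 0.06).

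**Figure D5:**
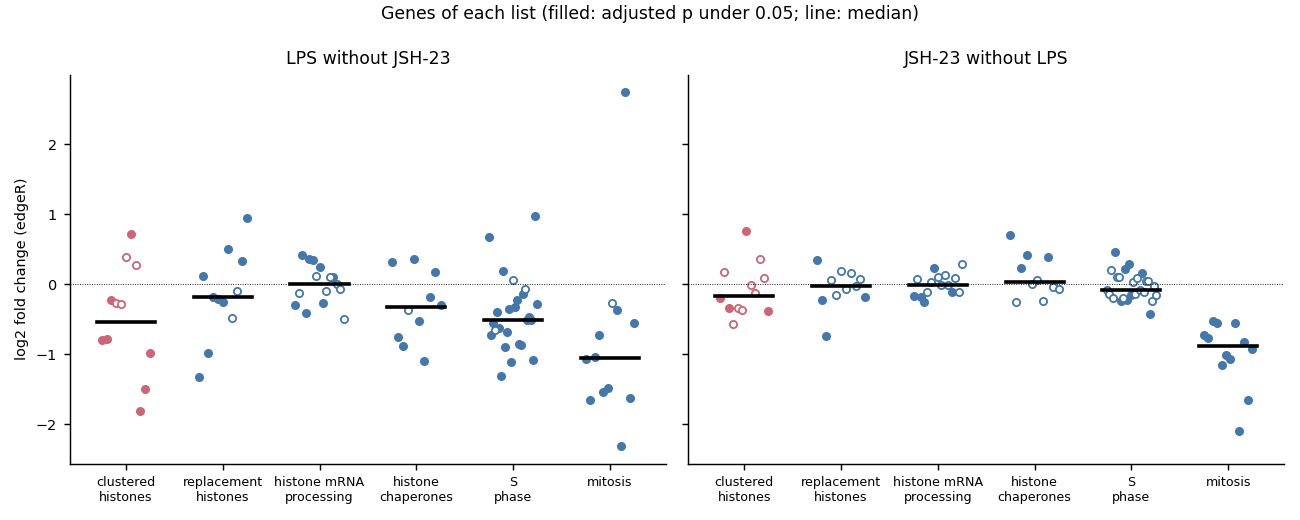
Log2 fold change of single genes in 6 lists with LPS alone (left) and with JSH-23 alone (right), with filled points for an adjusted p under 0.05 by edgeR and a line at the median of each list. Hist2h3c1 is left out of the left panel but counted in its median. With LPS the lists of S phase and mitosis have medians of -0.50 and -1.05, and with JSH-23 alone all 12 mitosis genes lie below 0.

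The LPS labels of WT and WTL were checked on Tnf, a target of LPS outside the lists. Tnf stood between 102 and 116 CPM in WT and between 1988 and 2132 CPM in WTL. The JSH-23 labels were not checked in this way. Dendritic-cell markers summed to between 15402 and 15662 CPM in WT and between 17898 and 18923 CPM in WTL, and 7 of 8 rose with LPS. The 8 macrophage markers summed to between 2063 and 2190 CPM in WT and between 2608 and 2648 CPM in WTL, 3 of them higher and 5 lower. The higher sum came from Cd14, at a mean of 239 CPM in WT and 1268 CPM in WTL, and the other 7 summed to between 1827 and 1946 CPM in WT and between 1314 and 1414 CPM in WTL. Neutrophil markers, of which 6 of 10 passed the filter, summed to between 43.9 and 49.6 CPM in WT and between 62.2 and 63.1 CPM in WTL. Erythroid and lymphoid markers, from cells that divide or circulate in marrow, were at most 0.136 and 0.800 CPM in sum in any library, and Hba-a1 was at 0 in all. With JSH-23 without LPS, 2 macrophage markers were higher and 5 lower (log2 fold changes from -3.14 to 0.64), 2 dendritic-cell markers were higher and 3 lower, and 1 of the 6 neutrophil markers was lower. With JSH-23 under LPS, 2 macrophage markers were higher and 5 lower (from -3.18 to 0.52), 1 dendritic-cell marker was higher and 6 lower, and all 6 neutrophil markers were lower (from -1.29 to -0.29). The 8 macrophage markers summed to between 1767 and 1796 CPM in WT + JSH23 and between 2308 and 2442 CPM in WTL + JSH23. The part of a changed mixture of cells in the histone values was not tested.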

How the data were processed

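Paired-end RNA-seq of 12 libraries was used. Per the labels and the study's methods, the authors trimmed reads with Trim Galore, aligned them to mm10 with STAR 2.6.0c and deposited, per gene, RSEM expected counts, TPM and FPKM values (FPKM was not used here). The strand setting and GENCODE release were not given in the sources used here, and symbols came from GENCODE M21, which matched 55154 identifiers. Here the expected counts were rounded, genes were kept by filterByExpr and TMM-scaled, and 4 group means were fitted with edgeR 4.0.16 (R 4.3.3, quasi-likelihood test, Benjamini-Hochberg adjustment over 14357 genes). SE is the log2 fold change over the square root of F. Alternatives were DESeq2 1.42.0, limma 3.58.1 on log2(TPM + 1), other scalings and filters, only the groups compared, leaving out each library, and a replicate block. Copies were summed as an addition made after the data were seen. The scripts were tested on simulated data. Members and lists were chosen with earlier results of these data known. Named list genes were the 3 with the smallest adjusted p per list and comparison; all members were named. Same-numbered libraries deviated together only weakly, and the main fit held no replicate block.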

Additional observations from a re-analysis of the deposited data

Results flagged for a closer look

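The LPS change differed with JSH-23, by the interaction test of edgeR at an adjusted p under 0.05, for 9 named genes of the lists and for none of the 12 clustered histone genes. Over all genes tested 18.0% passed. Among replacement histones the interaction (LPS change after JSH-23 minus that without, log2) was -0.41 for H3f3b, -0.18 for H3f3a and -0.20 for H2afz. It was -0.23 for Cpsf2, of the cleavage complex, and -0.25 for Hat1, the histone acetyltransferase. Of the S-phase genes it was 0.57 for E2f1 and -0.24 for Pcna, and of the mitosis genes 0.65 for Ccnb1 and 0.19 for Mki67. In the 12 fits that left out 1 library, H3f3b and Pcna passed in all. Ccnb1 passed in 11 (lost without WTL + JSH23 replicate 2, adjusted p of 0.0634), Cpsf2 in 11 (lost without WTL replicate 4, 0.0538) and Hat1 in 10 (lost without WTL replicate 4 or 5, up to 0.0572). Mki67 passed in 7 (up to 0.0913), lost without WTL + JSH23 replicate 1, WT + JSH23 replicate 1 or 3, WTL replicate 5 or WT replicate 6. H2afz passed in 7 (up to 0.0974), lost without WTL + JSH23 replicate 1, WT + JSH23 replicate 1, WTL replicate 4 or 5 or WT replicate 4. H3f3a passed in 5 (up to 0.0741), lost without any of these 5, WT + JSH23 replicate 3 or WT replicate 6. E2f1 passed in 3, those without WTL + JSH23 replicate 3, WT + JSH23 replicate 2 or WTL replicate 5, and ranged from 0.38 to 0.81 (adjusted p up to 0.120). By list, 3 of 11 replacement histone genes, 1 of 15 processing genes and 1 of 10 chaperone genes passed. So did 2 of 25 S-phase genes and 2 of 12 mitosis genes, beside the 18.0% of all genes.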

How the results depend on the processing

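Limits: no label says whether libraries with and without JSH-23 were grown or sequenced together, so such a difference and JSH-23 cannot be told apart. The kind of RNA selection is not settled, and near-identical copies share reads. In the 12 fits without 1 library the members called higher and lower ranged from 0 to 2 and 6 to 7 with LPS alone, 0 to 1 and 6 to 6 with LPS after JSH-23, 0 to 1 and 1 to 3 with JSH-23 under LPS, 0 to 2 and 3 to 3 with JSH-23 alone, and 0 to 0 and 0 to 1 for the interaction. The list genes called ranged from 53 to 61, 44 to 52, 32 to 40, 28 to 35 and 4 to 11 in the same order. They came from lists of 11, 15, 10, 25 and 12 genes. Hist2h2be was the only member with whole counts, so counts with whole counts are out of 1. Members averaging 1 CPM or more numbered 8. The fit of the groups compared only held 11 members with LPS alone and 10 with JSH-23 under LPS. With LPS alone, members higher numbered 2 in the fit of the groups compared only and 0 by limma on TPM, among members with whole counts and past 2-fold, and members lower numbered 1 with whole counts and 3 past 2-fold. With LPS after JSH-23, higher members numbered 0 after upper quartile scaling, in the groups compared only, by DESeq2, by limma, with whole counts and past 2-fold, and lower members 1 with whole counts and 2 past 2-fold. With JSH-23 under LPS, higher members numbered 1 after upper quartile scaling, with only genes averaging 1 CPM or more, in the groups compared only and by limma, and 2 with no filter, and lower members 1 in the groups compared only and by limma and 0 with whole counts and past 2-fold. With JSH-23 alone, both numbered 0 with whole counts and past 2-fold, and limma called 1 interaction higher. The summed level changed by -0.60, -0.55, -0.11 and -0.16 (log2; LPS alone, LPS after JSH-23, JSH-23 under LPS, JSH-23 alone) on CPM and by -0.79, -0.65, 0.11 and -0.026 on TPM.

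Directions turned for these log2 changes, and the cause was not tested. By limma on TPM they were Hist2h2aa2 (-0.076) with LPS alone, Cpsf2 (-0.0088) with LPS after JSH-23, Hist1h1c (0.0012), Hist1h4i (0.042) and Srrt (0.071) with JSH-23 under LPS, and Hist1h2bc (0.091) and Hist2h3c1 (-0.15) for the interaction. With JSH-23 alone Hist2h2aa2 turned after upper quartile scaling (0.0017) and in the groups compared only (0.0044). In the fits without 1 library, Hist1h2be ranged from -0.42 to 0.017 and Hist1h2bg from -0.94 to 0.045 with LPS alone. With LPS after JSH-23, Hist2h2aa2 ranged from -0.32 to 0.12 and Hist2h3c2 from -0.86 to 0.30. With JSH-23 under LPS, Hist1h4i ranged from -0.23 to 0.18. With JSH-23 alone, Hist2h2aa2 ranged from -0.063 to 0.072, Hist2h2be from -0.21 to 0.0093, Hist2h3c1 from -0.18 to 0.94 and Hist2h3c2 from -0.76 to 0.63. For the interaction, Hist1h2bc ranged from -0.099 to 0.00081, Hist3h2a from -0.0033 to 0.15, Hist2h2aa1 from -0.55 to 0.034 and Hist2h3c1 from -0.36 to 2.95. Of these changes, those of Hist1h1c, Cpsf2 and Srrt had passed the test. Without WTL + JSH23 replicate 3, the interaction of Hist2h2aa2 passed (-0.60, adjusted p of 0.0250, edgeR). Of the members' values under all alternatives, 24 reversed, 37 lost a call, 19 gained one and 1101 kept direction and side of the threshold. Deviations of same-numbered libraries correlated weakly but always positively, between 0.0142 and 0.0614. Between libraries of unlike number the correlations ran from -0.0564 to 0.0355, the highest for WT + JSH23 replicate 1 with WTL + JSH23 replicate 2. Whether the numbers pair the libraries was not settled. The fit with a replicate block again called 1 member higher and 7 lower with LPS alone, and 1 and 6 after JSH-23. Over all genes it called 2968 interactions, beside 2582 without the block.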
